A study of Mus musculus with 6 samples.

Results

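Cholesterol and fatty acid synthesis genes were examined in haematopoietic stem cells (HSCs) of control and MaeaCsf1r-Cre mice. The targeted gene, Maea, encodes a subunit of an E3 ubiquitin ligase. The synthesis genes were the 31 rows, of 46959 in the deposited table, whose symbol was on a pathway list of 18 mevalonate and sterol enzymes, 5 genes of SREBP control and 8 fatty acid synthesis genes. Membership followed the pathway and used no measured value, although the list was drawn up with earlier results of these data known. RNA was sequenced from 3 control and 3 MaeaCsf1r-Cre libraries, each made from about 2000 HSCs sorted from mouse bone marrow. In the study, HSCs were CD150+ CD48- lineage- Sca-1+ c-kit+ cells.

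MaeaCsf1r-Cre mice carried floxed Maea and a Csf1r-Cre transgene, and littermates of the same age, 8 weeks, were the controls. The labels call the latter control without giving their alleles, so whether they carried the floxed gene or the transgene is not given here. Each library pooled cells of 2 mice. Csf1r encodes the receptor for macrophage colony-stimulating factor, and its promoter is active in macrophages. The study describes Cre activity in HSCs as well, so the deletion was not confined to HSCs.

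Cells make cholesterol from acetyl-CoA through mevalonate, squalene and lanosterol. Fatty acids are built from the same acetyl-CoA by a carboxylase and a synthase, then desaturated and elongated. Both routes are switched on by SREBP transcription factors. Scap carries SREBP to the Golgi for cleavage when sterols are scarce, and Insig proteins hold it back when they are plentiful. Dividing blood progenitors need these lipids for membranes, and cholesterol carried to or from the cell is known to affect how HSCs proliferate.

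The reads behind the scaling numbered 32967778 to 39613810 in control and 44158642 to 60936809 in MaeaCsf1r-Cre libraries, and 3 reads, the smallest signal counted, were 0.0492 to 0.0910 CPM (counting error only). Maea itself was at 108 to 123 CPM in control and 76.9 to 101 CPM in MaeaCsf1r-Cre libraries, with reads counted over the whole gene. HSC markers were present in every library, with Kit, the stem cell factor receptor, at 393 CPM or more. Their summed level was 1124 to 1803 CPM in control and 781 to 1467 CPM in MaeaCsf1r-Cre libraries, with a fitted value below 0 for 8 of 10. Of 10 B cell markers, Pax5, Igll1 and Ms4a1 were listed at 0 throughout and 2 were high enough to be tested. Of these, Cd79b was at 12.9 to 27.2 CPM with overlapping groups, and Ighm, the immunoglobulin mu chain, was at 7.51 to 29.5 CPM in control and 0.279 to 2.26 CPM in MaeaCsf1r-Cre libraries (limma, adjusted p = 0.489). The summed level of the 10 was 33.9 to 55.4 CPM in control and 13.9 to 27.0 CPM in MaeaCsf1r-Cre libraries, and its part in the pathway values was not tested. Of 10 macrophage markers 8 were tested, and all 8 had a fitted value below 0, beside 60.9% of all genes. C1qa, C1qb and C1qc reached the minimum for testing, 1 CPM in 3 libraries, only through the control libraries. Their direction was thus fixed in advance. None of the 8 passed the adjusted threshold (smallest adjusted p 0.194 in limma), and 4 had overlapping groups. The other 4, C1qa, C1qb, C1qc and Csf1r, were lower in every MaeaCsf1r-Cre library, beside 6.06% of all genes. The summed levels of the 10 were 36.3 to 79.3 CPM in control and 6.10, 14.3 and 58.2 CPM in MaeaCsf1r-Cre replicates 1, 2 and 3. C1qb, a complement gene of tissue macrophages, was at 3.79 to 8.98 CPM in control and at most 0.474 CPM in MaeaCsf1r-Cre libraries. In bulk RNA, fewer cells of a type and less RNA per cell cannot be told apart.

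All 31 genes were detected in every library, and all 31 passed the filter of at least 1 CPM in at least 3 libraries. The rarest was Scd1, with about 39.8 to 106 reads a library, and the most deeply covered was Fasn, with up to 12669. To compare genes, CPM was divided by exon length, the summed length of all annotated exons. On this scale of CPM per kb, averaged over the 6 libraries, the highest were the fatty acid elongase Elovl1 (52.2), the stearoyl-CoA desaturase Scd2 (39.1), the ATP-citrate lyase Acly (31.8), the transcription factor Srebf2 (20.95) and the isopentenyl diphosphate isomerase Idi1 (20.7). The lowest were the oxidoreductase Hsd17b7 (1.51), the sterol reductase Tm7sf2 (0.895) and Scd1 (0.328). Neighbours in this order could seldom be separated. In 3 of the 30 neighbouring pairs the lowest library of the higher gene lay above the highest library of the lower one, namely Lss over Acaca, Hsd17b7 over Tm7sf2 and Tm7sf2 over Scd1.

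**Figure D1:**
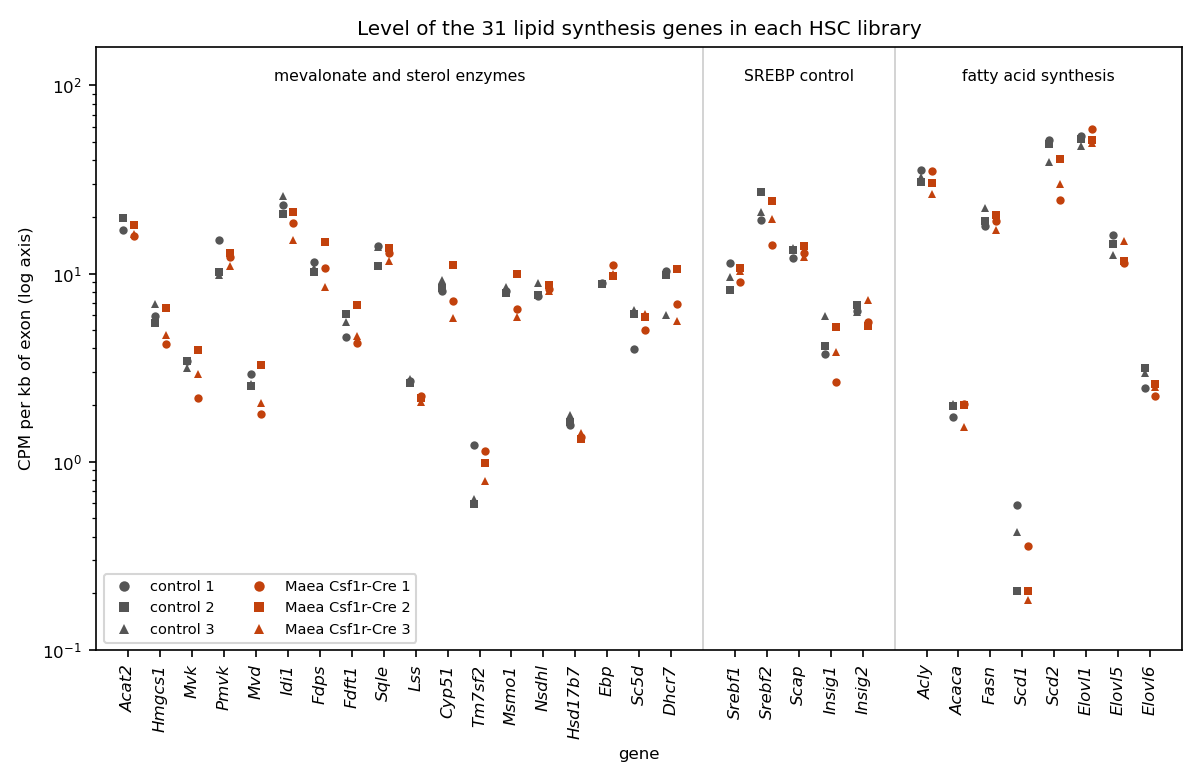
Each point is 1 library, control in grey and MaeaCsf1r-Cre in orange, with a marker shape for each replicate number; the vertical log axis gives CPM per kb of exon for each of the 31 genes, grouped by role. The levels span from Elovl1 at a mean of 52.2 to Scd1 at 0.328, and for most genes the orange and grey points overlap.

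Expression of the pathway in MaeaCsf1r-Cre and control HSCs was then compared. The fit was limma's moderated test on log2(CPM + 1), MaeaCsf1r-Cre minus control, adjusted over all 12955 genes tested. None of the 31 genes passed an adjusted p of 0.05, where 1 gene in all did (0.00772% of those tested), and the smallest adjusted p among the 31 was 0.967. At an unadjusted p under 0.05 there were 2, Lss and Scd2, against 3.99% of all genes. Same-numbered libraries deviated together, so a second fit took the replicate number as a block. This added Srebf2, for 3 genes against 13.9% of all genes, and the smallest adjusted p became 0.241.

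The fitted change was below 0 for 22 of the 31 genes (71.0%), as it was for 60.9% of all genes. Of the 31, 1 was higher in every MaeaCsf1r-Cre library than in every control library (2.49% of all genes) and 2 were lower (6.06% of all genes). After rescaling by median ratios these counts stayed at 1 and 2, while the shares of all genes became 4.70% and 4.44%. Comparing only libraries of the same number, 8 genes were lower in all 3 pairs (25.8%), as were 23.5% of all genes. The 95% confidence interval of the log2 fold change included 0 for 29 of the 31 genes.

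**Figure D2:**
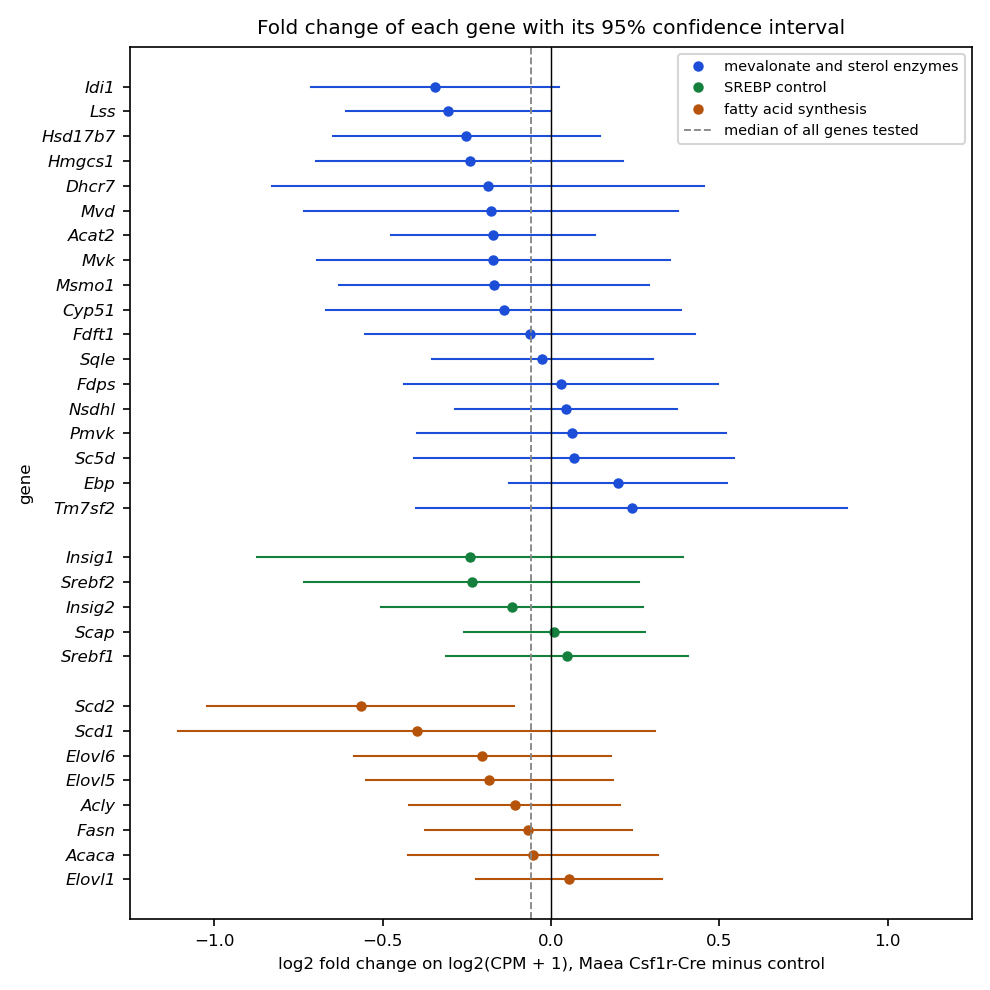
Points give the fitted log2 fold change of each gene on the log2(CPM + 1) scale, MaeaCsf1r-Cre minus control, and bars its 95% confidence interval (limma, n = 3 libraries each); the dashed line is the median of all genes tested, at -0.06. The intervals of Lss and Scd2 leave out 0, and those of the other 29 genes do not.

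The 18 mevalonate and sterol enzymes had a median log2 fold change of -0.16, beside -0.06 for all genes tested, with 12 lower and 6 higher and none past the adjusted threshold. Hmgcs1, the synthase that makes HMG-CoA, was at 27.2, 25.0 and 31.7 CPM in control replicates 1, 2 and 3, and at 19.4, 30.2 and 21.8 CPM in MaeaCsf1r-Cre replicates 1, 2 and 3. The groups overlapped through MaeaCsf1r-Cre replicate 2 alone. The fitted log2 difference was -0.24 (SE 0.20, 95% confidence interval -0.70 to 0.21, limma, adjusted p = 0.967).

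Idi1, which isomerises the isoprene unit, had the lowest fitted value of the sterol enzymes. It was at 80.8, 72.3 and 90.8 CPM in control and at 65.2, 74.1 and 53.1 CPM in MaeaCsf1r-Cre libraries, and MaeaCsf1r-Cre replicate 2 again lay within the control range. The fitted log2 difference was -0.34 (SE 0.16, 95% confidence interval -0.71 to 0.02, limma, adjusted p = 0.967). Sqle, the squalene epoxidase, was at 78.1, 61.2 and 77.1 CPM in control and at 71.6, 75.8 and 64.3 CPM in MaeaCsf1r-Cre libraries. Every MaeaCsf1r-Cre value of Sqle lay inside the control range, and the sign of its log2 fold change of -0.03 (SE 0.14) turned with scaling, to 0.036 after rescaling by median ratios.

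Lss, the cyclase that makes lanosterol, separated the groups. It was at 28.8, 28.4 and 29.7 CPM in control and at 24.0, 23.4 and 22.4 CPM in MaeaCsf1r-Cre libraries. All 3 MaeaCsf1r-Cre libraries were lower, including replicate 2, and the replicates of each group lay close together (29.0 ± 0.681 and 23.3 ± 0.816 CPM, SD, n = 3 each). Its fitted difference, a log2 fold change of -0.30 (SE 0.13), had an unadjusted p of 0.0492 in limma's fit, an adjusted p of 0.967, and an adjusted p of 0.325 with the replicate block. All 6 values of Lss were fractions of a read, and its annotated span overlaps a gene on the other strand. Part of its signal may be shared, but overlap of exons was not examined.

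Hsd17b7, an oxidoreductase of sterol demethylation, was also lower in every MaeaCsf1r-Cre library. It was at 8.04, 8.33 and 8.997 CPM in control and at 6.88, 6.70 and 7.24 CPM in MaeaCsf1r-Cre libraries, a log2 fold change of -0.25 (SE 0.17, limma, adjusted p = 0.967). Ebp, the sterol isomerase, went the other way and was the 1 gene higher in every MaeaCsf1r-Cre library. It was at 20.7, 20.4 and 20.3 CPM in control and at 25.5, 22.5 and 22.8 CPM in MaeaCsf1r-Cre libraries, a log2 fold change of 0.20 (SE 0.14, limma, adjusted p = 0.967). Both genes had whole read numbers in every library. With a correction for the length of the longest annotated transcript, neither Lss nor Hsd17b7 separated the groups any longer (log2 differences of -0.13 and -0.11). Quantile normalization ended the separation of Hsd17b7. Tm7sf2, a sterol C14 reductase, had the highest fitted value of the sterol enzymes, 0.24 (SE 0.28). Its control values of 5.399, 2.63 and 2.78 CPM enclosed all 3 MaeaCsf1r-Cre values of 4.99, 4.35 and 3.50 CPM.

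Several other sterol enzymes varied widely among MaeaCsf1r-Cre libraries. MaeaCsf1r-Cre replicate 2 held the highest value of all 6 libraries for 7 of the 18 enzymes, where it did so for 5.66% of all genes, and the highest of the 3 MaeaCsf1r-Cre values for 13 of the 18, against 19.5% of all genes. The 7 were Mvk and Mvd, a kinase and a decarboxylase of the mevalonate pathway, the prenyl synthase Fdps, the squalene synthase Fdft1, and the sterol enzymes Cyp51, Msmo1 and Dhcr7. Cyp51, the lanosterol demethylase, was at 35.8, 37.2 and 40.6 CPM in control and at 31.6, 49.1 and 25.7 CPM in MaeaCsf1r-Cre libraries. Msmo1, the methyl sterol monooxygenase of a later step, was at 49.5, 48.4 and 52.3 CPM in control and at 39.7, 60.9 and 36.1 CPM in MaeaCsf1r-Cre libraries. For both, MaeaCsf1r-Cre replicates 1 and 3 lay below every control library and replicate 2 lay above every one. The same order held for Mvk, with 8.47 to 9.19 CPM in control and 5.84, 10.4 and 7.78 CPM in MaeaCsf1r-Cre libraries, and for Mvd, with 4.70 to 5.46 CPM in control and 3.33, 6.09 and 3.81 CPM in MaeaCsf1r-Cre libraries. It did not hold for Fdps and Dhcr7, where MaeaCsf1r-Cre replicate 1 lay within the control range, or for Fdft1, where replicate 3 did. The acetyltransferase Acat2, which joins acetyl-CoA units, had a log2 fold change of -0.17 (SE 0.13) and was lower in each numbered pair. The phosphomevalonate kinase Pmvk and the sterol enzymes Nsdhl and Sc5d had values of 0.06, 0.05 and 0.07 on this scale (SEs 0.20, 0.14 and 0.21), with overlapping groups.

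**Figure D3:**
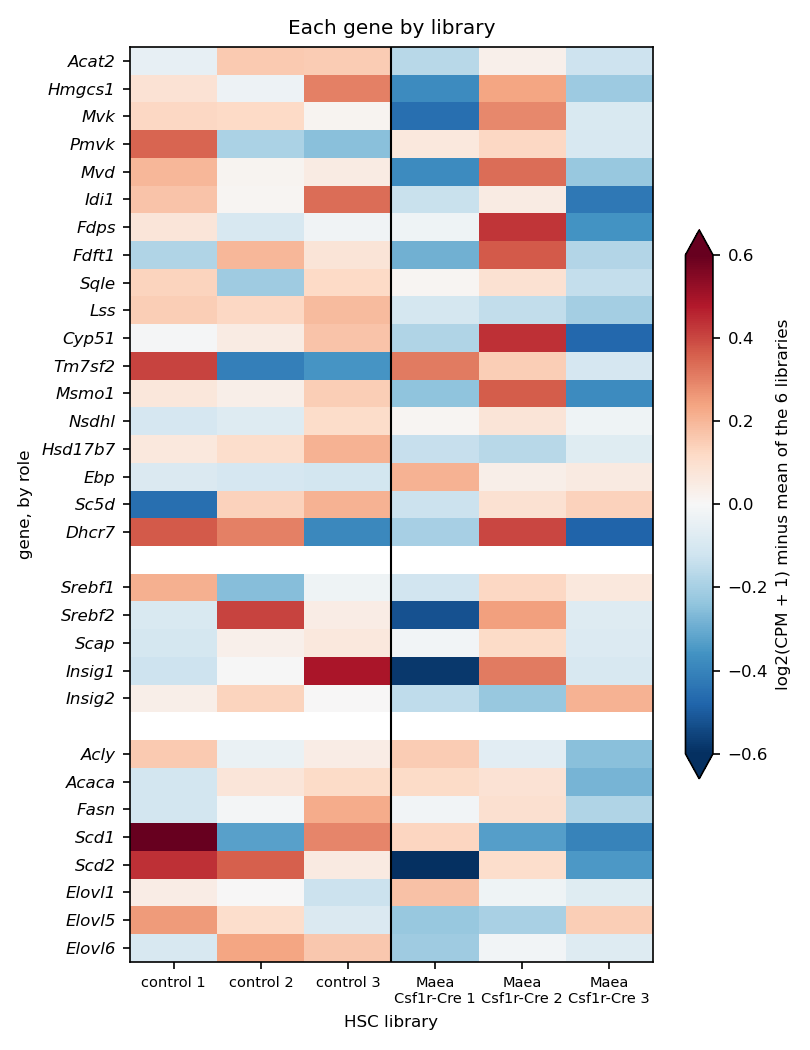
Rows are the 31 genes by role and columns the 6 libraries; colour gives log2(CPM + 1) minus the gene's mean over the 6 libraries, red above and blue below. The column of MaeaCsf1r-Cre replicate 2 is red for most sterol enzymes, and the columns of replicates 1 and 3 are mostly blue.

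Summed over the 18 enzymes, the level was 587, 563 and 595 CPM in control libraries and 510, 637 and 469 CPM in MaeaCsf1r-Cre libraries. The control sums lay within a narrow range (581 ± 16.6 CPM, SD, n = 3), and the MaeaCsf1r-Cre sums spread to both sides of it (539 ± 87.7 CPM, SD, n = 3). MaeaCsf1r-Cre replicate 2 had the lowest summed level of 15 cell division genes, 1691 CPM against 2546 and 2362 CPM in MaeaCsf1r-Cre replicates 1 and 3. Control replicate 2 was next lowest at 1730 CPM, with 2254 and 1875 CPM in control replicates 1 and 3. All 15 had a fitted value above 0, where 60.9% of all genes lay below 0. The groups overlapped for all 15 (smallest adjusted p 0.967 in limma). The summed level of megakaryocyte genes in MaeaCsf1r-Cre replicate 2 was 819 CPM against 423 and 506 CPM in the other MaeaCsf1r-Cre libraries, and 344 to 1427 CPM in control. The part of either in the sterol values was not tested.

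Each library was left out in turn. Without MaeaCsf1r-Cre replicate 2, the median of the sterol enzymes was -0.25 (-0.02 for all genes), and 10 of the 31 genes were lower in every remaining MaeaCsf1r-Cre library than in every control library, against 8.76% of all genes. They were Acat2, Hmgcs1, Mvk, Mvd, Idi1, Lss, Cyp51, Msmo1, Hsd17b7 and Scd2. An unadjusted p under 0.05 was then found for 5 of the 31 genes (3.39% of all genes), with no adjusted p under 0.05. Without MaeaCsf1r-Cre replicate 3, in contrast, the median of the sterol enzymes was 0.0076 (-0.09 for all genes). Without replicate 1 it was -0.04 (-0.05 for all genes). Among single enzymes, Hmgcs1 ran from -0.11 without MaeaCsf1r-Cre replicate 1 to -0.42 without replicate 2, and Idi1 from -0.22 without replicate 3 to -0.45 without replicate 2. Tm7sf2 ran from 0.09 without control replicate 2 to 0.50 without control replicate 1. The lower median of the sterol enzymes thus rested on which MaeaCsf1r-Cre libraries were counted.

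**Figure D4:**
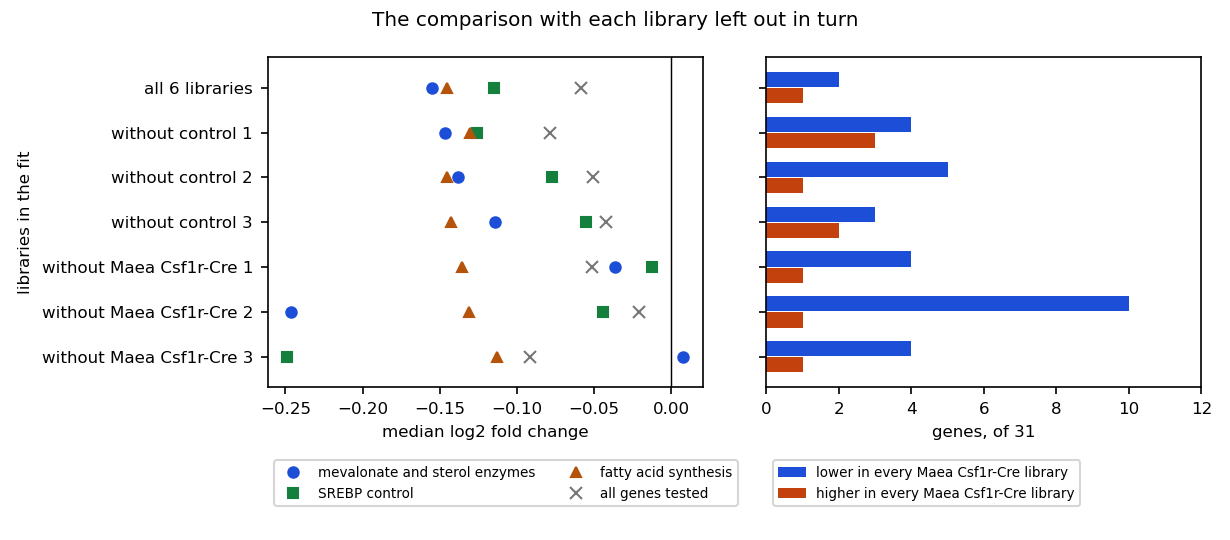
The left panel gives the median log2 fold change of each role group and of all genes tested, the right panel the number of the 31 genes that were lower (blue) or higher (orange) in every MaeaCsf1r-Cre library than in every control library, with all 6 libraries and with each left out. The sterol median runs from -0.25 without MaeaCsf1r-Cre replicate 2 to 0.0076 without replicate 3, and the count of lower genes from 2 to 10.

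Promoter sequence of the genes was also examined. RefSeq windows of GRCm38.p6, from 250 bases before a gene's start to 50 after it, were at hand for 26 of the 31 genes, in 35 windows. Both strands were searched for TCACNCCAC, a form of the sterol regulatory element, for CCAAT, bound by NF-Y, for GGGCGG, bound by Sp1, and for CACGTG, an E-box. CCAAT was in 65.7% of the members' windows and in 37.4% of all 32851 windows. GGGCGG was in 74.3% and 35.7%, and CACGTG in 20% and 7.15%. TCACNCCAC was in 1 window of the members, that of Hmgcs1 (2.86%), and in 1.24% of all windows. A match is a description of letters, and other forms of the sterol element were not searched. GC content was not matched in these shares.

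The bases before the first annotated transcript are shown for Hmgcs1, which held the 1 sterol element, for Lss and Ebp, which separated the groups in opposite directions, and for the factor gene Srebf2. Capitals mark TCACNCCAC and CCAAT, the latter read as ATTGG where it lies on the opposite strand. Each run is given 5′ to 3′ on the strand of its gene. Hmgcs1 is taken from chr13:119690101-119690350 on the plus strand, Lss from chr10:76531355-76531587 on the plus strand, Ebp from chrX:8193513-8193762 on the minus strand and Srebf2 from chr15:82147019-82147180 on the plus strand.
Hmgcs1: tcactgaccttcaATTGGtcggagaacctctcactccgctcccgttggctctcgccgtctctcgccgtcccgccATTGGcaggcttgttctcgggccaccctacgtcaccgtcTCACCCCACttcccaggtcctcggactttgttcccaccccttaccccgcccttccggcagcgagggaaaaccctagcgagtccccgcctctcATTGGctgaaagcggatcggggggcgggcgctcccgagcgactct
Lss: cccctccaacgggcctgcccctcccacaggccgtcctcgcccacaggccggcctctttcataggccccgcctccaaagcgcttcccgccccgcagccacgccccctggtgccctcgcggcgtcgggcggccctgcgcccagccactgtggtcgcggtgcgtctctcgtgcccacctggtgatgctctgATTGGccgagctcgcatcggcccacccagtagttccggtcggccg
Ebp: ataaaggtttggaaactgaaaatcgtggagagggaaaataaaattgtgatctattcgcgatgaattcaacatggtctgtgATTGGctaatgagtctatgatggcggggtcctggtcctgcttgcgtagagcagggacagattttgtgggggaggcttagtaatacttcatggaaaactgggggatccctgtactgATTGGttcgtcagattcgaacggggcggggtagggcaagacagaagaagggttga
Srebf2: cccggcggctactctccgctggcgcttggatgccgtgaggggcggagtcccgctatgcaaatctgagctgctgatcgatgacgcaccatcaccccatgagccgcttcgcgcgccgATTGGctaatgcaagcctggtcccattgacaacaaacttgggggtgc

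In Hmgcs1 the sterol element begins 137 bases before the RefSeq start, with CCAAT 45 bases before it and 2 more farther up. Lss holds 1 CCAAT, 62 bases before its start, and Ebp holds 2, at 170 and 55 bases. Lss was lower and Ebp higher in every MaeaCsf1r-Cre library, and both windows hold CCAAT and lack TCACNCCAC.

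The 5 genes of SREBP control had a median log2 fold change of -0.11, with 3 lower and 2 higher. Srebf2 encodes SREBP2, the factor that drives most sterol enzymes. It was at 138, 196 and 152 CPM in control and at 102, 175 and 139.6 CPM in MaeaCsf1r-Cre libraries. The groups overlapped, but each MaeaCsf1r-Cre library was below the control library of its number. The log2 fold change was -0.24, with an SE of 0.22 and an adjusted p of 0.967 in limma's fit, and an SE of 0.10 and an adjusted p of 0.352 with the replicate block. It was -0.03 without MaeaCsf1r-Cre replicate 1, -0.09 without control replicate 2, -0.42 without MaeaCsf1r-Cre replicate 2 and -0.09 with the length correction. The summed HSC markers were highest in control replicate 2 and lowest in MaeaCsf1r-Cre replicate 1, the libraries with the highest and the lowest Srebf2, and their part in the difference was not tested.

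Srebf1, whose product drives fatty acid enzymes, was at 64.2, 46.1 and 54.2 CPM in control and at 50.9, 60.2 and 57.8 CPM in MaeaCsf1r-Cre libraries. The control range enclosed all 3 MaeaCsf1r-Cre values, and the log2 fold change was 0.05 (95% confidence interval -0.31 to 0.41), the highest of the group, with a sign that turned when control replicate 2 or MaeaCsf1r-Cre replicate 2 was left out. Per kb, Srebf2 was above Srebf1 in every library, by 1.58 to 3.33 times. The form of Srebf1 transcript was not separated in these values. Insig1, a sterol-responsive anchor, was at 11.6, 12.7 and 18.3 CPM in control and at 8.22, 16.1 and 11.9 CPM in MaeaCsf1r-Cre libraries. Replicate 2 was again the highest MaeaCsf1r-Cre library, and the log2 fold change was -0.24 (SE 0.27, limma, adjusted p = 0.967). This became -0.01 without MaeaCsf1r-Cre replicate 1, -0.06 without control replicate 3, -0.36 without control replicate 1 and -0.46 without MaeaCsf1r-Cre replicate 2. Its paralogue Insig2 had a log2 fold change of -0.11 (SE 0.17) and Scap, the escort protein, of 0.01 (95% confidence interval -0.26 to 0.28).

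Of the 8 fatty acid synthesis genes, 7 had a fitted value below 0, beside 60.9% of all genes. The median of the 8 was -0.15 (-0.06 for all genes). With the length correction it became -0.0078, while that of all genes rose to 0.033. Scd2, the desaturase that makes monounsaturated fatty acids in most tissues other than liver and fat, had the lowest fitted value of all 31 genes. It was at 280.5, 265 and 214 CPM in control and at 135, 223 and 163 CPM in MaeaCsf1r-Cre libraries. Only MaeaCsf1r-Cre replicate 2 and control replicate 3 crossed, and in each numbered pair the MaeaCsf1r-Cre library was lower. The mean was 253 ± 34.6 CPM in control and 173 ± 44.7 CPM in MaeaCsf1r-Cre HSCs (SD, n = 3 each), or 68.5% of control. In limma the fitted difference on the log2 scale was -0.57 (SE 0.20, 95% confidence interval -1.02 to -0.11), with an unadjusted p of 0.0212 and an adjusted p of 0.967. Under the block these were 0.00712 and 0.241. Scd2 (GRCm38, mm10, chromosome 19, 44293674 to 44306864) lies next to its paralogue Scd1. Its values were fractions of a read in all 6 libraries, as were those of Scd1.

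Scd1, the desaturase of liver and fat, was near the filter minimum at 2.89, 1.004 and 2.08 CPM in control and 1.74, 0.9998 and 0.904 CPM in MaeaCsf1r-Cre libraries. Its log2 fold change was -0.40 (SE 0.31, limma, adjusted p = 0.967), on a scale that understates changes of genes at such levels. It ran from -0.18 without control replicate 1 to -0.66 without control replicate 2. Per kb, Scd2 was 69.4 to 237 times as high as Scd1, so that Scd2 made up nearly all desaturase signal of the pair. Reads that fit both genes could have been split between them, which touches Scd1 most.

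Fasn, the fatty acid synthase, was at 195, 209 and 245 CPM in control and at 208, 225 and 186 CPM in MaeaCsf1r-Cre libraries. The groups overlapped, and its log2 fold change of -0.07 had a 95% confidence interval of -0.38 to 0.24 and became 0.14 with the length correction. Elovl1, which elongates very long chains, had the highest fitted value of the group, 0.05 (SE 0.12), with 147, 142 and 129.9 CPM in control and 161, 139.5 and 135 CPM in MaeaCsf1r-Cre libraries. Acly, which makes cytosolic acetyl-CoA, and Acaca, the acetyl-CoA carboxylase, had log2 fold changes of -0.11 and -0.05 (SEs 0.14 and 0.16). The elongases Elovl5 and Elovl6 had log2 fold changes of -0.18 and -0.20 (SEs 0.16 and 0.17). MaeaCsf1r-Cre replicate 2 was the highest of the 6 libraries for none of the 8 genes. Their summed level was 862 to 913 CPM in control and 719 to 839 CPM in MaeaCsf1r-Cre libraries (887 ± 25.3 and 779.7 ± 60.1 CPM, SD, n = 3 each). The sums did not overlap, and of these means Scd2 was 253 and 173 CPM, but 0 of the 8 genes was itself lower in every MaeaCsf1r-Cre library. How often sums of other genes separate was not computed, nor were the sums under other scalings.

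Neighbouring genes of the pathway were counted in the same fit. Of 24 genes of sterol uptake, storage, export and sensing, 21 were tested, 17 were below 0 (81.0%, beside 60.9% of all genes) and 4 above. In limma 0 passed the adjusted threshold and 1 reached an unadjusted p below 0.05, beside 3.99% of all genes, and 6 did under the block, beside 13.9% of all genes. The 1 gene was Abca1, which exports cholesterol to apolipoproteins. It was at 17.3, 22.6 and 18.1 CPM in control and at 4.55, 9.94 and 16.5 CPM in MaeaCsf1r-Cre libraries. All 3 were below every control library. Within each group its order over libraries was that of the summed HSC markers, while the summed macrophage markers had the same order in MaeaCsf1r-Cre libraries and not in control. The part of either in the difference was not tested. The log2 fold change was -0.98 (SE 0.38, 95% confidence interval -1.87 to -0.10, limma adjusted p = 0.967, or 0.261 under the block). It was -0.54 without MaeaCsf1r-Cre replicate 1. Nr1h3, the oxysterol receptor LXRα, was singled out after its values were seen. It passed the filter of 1 CPM in 3 libraries only through the control libraries. Lower values in every MaeaCsf1r-Cre library were thus fixed by the filter. The log2 fold change of Nr1h3 was -0.62 (SE 0.32, limma, adjusted p = 0.967), on 29 to 104 reads a library. It was at 1.09, 1.03 and 3.04 CPM in control and at 0.476, 0.702 and 0.902 CPM in MaeaCsf1r-Cre libraries. Abcg1, an exporter to HDL, had a log2 fold change of -0.32 (SE 0.32), which turned to 0.06 without MaeaCsf1r-Cre replicate 1 and was -0.13 without control replicate 2.

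Of 38 other genes of fatty acid synthesis, elongation, desaturation, activation, storage, oxidation and their control, 31 were tested, 22 were below 0 (71.0%) and 9 above. In limma 0 passed the adjusted threshold and 1, the malic enzyme Me1, reached an unadjusted p below 0.05, while 3 did under the block, beside the same 3.99% and 13.9% of all genes. Acsl3 and Dgat1, which activate and store fatty acids, were lower in every MaeaCsf1r-Cre library, as were 6.06% of all genes. The median over these genes was -0.05, beside -0.06 for all genes, and that of the sterol neighbours was -0.24.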

How the data were processed

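Gene expression was measured by RNA-seq in 3 control and 3 MaeaCsf1r-Cre HSC libraries. The authors used the SMART-Seq v4 and Nextera XT kits, which keep no strand, trimmed reads with Trim Galore, aligned them to mm10 with STAR 2.5.3a, quantified them against Ensembl release 83 and normalised them in Partek Flow. The values deposited are CPM per gene symbol, to which the authors' table adds 0.0001 each. Only 73.3 to 75.4% of low values were whole reads (tolerance 0.02 reads), so counts were not recovered and no count model was used. Reads given for a gene are its CPM times the reads behind the scaling, which were estimated from the steps between low values. The listed genes made up 75.2 to 80.2% of that scaling.

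Genes with at least 1 CPM in at least 3 libraries were fitted in limma 3.58.1 (R 4.3.3) on log2(CPM + 1), with a mean-variance trend, as a two-sided test with p adjusted (Benjamini-Hochberg) over the 12955 genes. Lengths, overlaps and coordinates came from GENCODE M21 (GRCm38), a later annotation than that of the authors. Of the 31 members, 11 overlap another annotated gene by start and end, without a comparison of exons. Where exons do overlap, reads cannot be told apart without strand. Values that were not whole reads (tolerance 0.05 reads) were found in 16 members. Tables and figures were made with matplotlib 3.10.9, pandas 2.3.3 and numpy 2.4.6 in Python 3.11.15. The replicate numbers come from the labels, which do not say that they mark a shared litter or day. They were taken to pair libraries because libraries of the same number departed from their group means together, with r (Pearson, over genes) of 0.627, 0.523 and 0.397.

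Members and lists were chosen with earlier results of these data known. Values in full were given for members whose groups did not overlap, those with an unadjusted p under 0.05 with or without the block, the highest and lowest fitted value of each role group, and Hmgcs1, Sqle, Idi1, Srebf1, Srebf2, Insig1, Fasn, Scd1 and Scd2. Outside the list, Abca1 and Abcg1 were named, with genes that both separated the groups and had such a p; Me1, Nr1h3, Acsl3, Dgat1, Cyp51, Msmo1 and the other enzymes highest in MaeaCsf1r-Cre replicate 2 were named after their values were seen. Some other genes that the rule would name are not reported here. Alternatives were the replicate block, leaving out each library, quantile normalization, rescaling by median ratios, a filter at 10 CPM or none, a pseudocount of 0.1 and no trend. A further one was a loess correction for the length of the longest annotated transcript.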

Additional observations from a re-analysis of the deposited data

How the results depend on the processing

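No member passed an adjusted p of 0.05 in limma under any of the 15 alternatives tried. At an unadjusted p the number ran from 0 to 5 of the 31, against 2 in the fit reported, and was 3 with the replicate block, which raised the count over all genes from 517 to 1805 and otherwise changed no call. Over all genes, the 1 adjusted call became 0 with a filter at 10 CPM (302 at an unadjusted p under 0.05) and 0 without control replicate 2 or 3 or MaeaCsf1r-Cre replicate 1 or 2 (241 to 435 at an unadjusted p). It became 12 with the length correction and the replicate block together, an alternative chosen after seeing the data.

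The 2 members lower in every MaeaCsf1r-Cre library became 1 with the filter at 10 CPM, which leaves 26 members, 1 with quantile normalization, and 0 with the length correction, with or without the block. When each library was left out the number ran from 3 to 10, beside 8.71% to 20.6% of all genes, and that of members higher in every MaeaCsf1r-Cre library from 1 to 3, beside 3.99% to 9.83% of all genes. The median log2 fold change of the sterol enzymes was -0.0087 with quantile normalization (0.015 for all genes). It was -0.25 to 0.0076 when each library was left out (-0.092 to -0.021 for all genes). The median of SREBP control ran from -0.25 to -0.012 and that of fatty acid synthesis from -0.15 to -0.11 in the same way. The latter was -0.0078 with the length correction, alone or with the block (0.033 for all genes). The number of members with a fitted value below 0, 22 as reported, was 20 after rescaling by median ratios, where the median of all genes was 0.00025. It was 19 with quantile normalization and 17 with the length correction. When each library was left out it ran from 16 without MaeaCsf1r-Cre replicate 3 to 25 without replicate 2. The causes were not tested.

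Of 237 fitted values of named genes, 222 kept their sign and their side of the threshold, and 15 turned sign. Sqle became 0.036 with rescaling, 0.00079 with quantile normalization and 0.11 with the length correction, and Fasn 0.14 with the length correction, both length-corrected values being the same with the block added. Over the libraries left out, Sqle ran from -0.14 to 0.038, Fasn from -0.14 to 0.027, Srebf1 from -0.070 to 0.17, Elovl1 from -0.021 to 0.10 and Abcg1 from -0.55 to 0.060. Count models were not run because whole reads could not be recovered. With 3 libraries a group, the SE of a member's log2 fold change was 0.12 to 0.31, and even Scd2, at -0.57 with an SE of 0.20, had an adjusted p of 0.967, so differences of that size were not called here.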

Other observations

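Enzymes that burn fatty acids were measured in the same libraries. Of 7 genes of carnitine transport and mitochondrial oxidation (Cpt1a, Cpt2, Acadm, Acadl, Acadvl, Hadha and Hadhb), 4 had a fitted log2 fold change above 0 and 3 below. The median was 0.07, with a range of -0.22 to 0.12 and SEs of 0.11 to 0.22 in limma's fit. None of the 7 separated the groups and none had an unadjusted p under 0.05.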
